A study of Mus musculus with 15 samples.

Results

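Osteocytes are the cells that osteoblasts become once they are buried in the matrix they made, and they are read here through 6 genes, Dmp1, Mepe, Phex, Fam20c, Sost and Fgf23, which were found by their symbols in the annotation of the array. The rule uses no signal, although the genes were picked with earlier results of these data known. Each of the 6 had 1 probe set of its own among the 19938 genes that had one. Transcripts were measured on 15 Mouse Gene 1.0 ST arrays, 1 for each whole tarsal joint of male DBA/1JBom mice. Collagen-induced arthritis was raised with an injection of chicken type II collagen in complete Freund's adjuvant and a boost in incomplete Freund's adjuvant on day 21. The 4 arthritic groups were sampled by how long the joint had been inflamed. The day 0-3 group (animals 16 and 18, and animal 57, whose array failed quality control), the week 1-2 group (animals 33, 43 and 52) and the week 3-4 group (animals 54, 29 and 60) all had a clinical score of 3. The decline group (animals 15, 21 and 10) had held a score of 3 for over 2 weeks by the sample labels, or for at least 3 weeks by the series text, and had then lost at least 1 score. The 3 control joints are labelled non-induced, and the published array methods call their animals non-immunised. The general animal methods of the paper state that the control group received both adjuvants without collagen. Whether the 3 array controls had received adjuvant is not stated outright. All values below rest on the 14 arrays that passed quality control, with 2 arrays for day 0-3 and 3 for each other group. They are log2 signals after robust multi-array averaging (RMA), and a gene was called where limma's adjusted p over all 19938 genes was under 0.05. The joints came from different animals, and limma's p-values set a difference against the spread between these few joints, pooled over the 5 groups. Where groups are said not to overlap, this only describes the arrays at hand. The share of all genes without overlap was not counted.

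Osteocytes lie in small cavities of the bone and reach one another and the bone surface through thin processes, from which they steer the osteoblasts and osteoclasts that renew bone. They secrete sclerostin, a brake on WNT signalling in osteoblasts, and they set how matrix mineralises and how much phosphate the kidney returns to blood. Dmp1 and Mepe code for acidic phosphoproteins of bone matrix, Phex for a membrane endopeptidase whose loss causes X-linked hypophosphataemia, Fam20c for the kinase of the secretory pathway that phosphorylates such proteins, Sost for sclerostin, and Fgf23 for the hormone that lowers phosphate uptake in the kidney.

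RefSeq coordinates on GRCm38.p6 put Dmp1 on chromosome 5 at 104197575 to 104214102 and Mepe at 104325329 to 104338611 on the same chromosome, with Dspp before Dmp1, Ibsp between the pair and Spp1 after Mepe, all genes of one family of matrix phosphoproteins. Fam20c lies far away on chromosome 5, Sost on chromosome 11, Fgf23 on chromosome 6 and Phex on chromosome X. All 6 had an entry in the RefSeq promoter table, from which the 250 bases before the start of transcription were read. The sequences below are those of the 3 genes called in a comparison of groups and of Mepe, the neighbour and relative of Dmp1. Capitals mark the RUNX core motif, which is TGTGGT, named for factors that regulate the osteoblast lineage. They also mark the motif of the TATA box, spelled TATAAA. Both motifs were searched on both strands, so that a match may read as the reverse complement, and they share no letters in these windows.
Dmp1, second of its 2 listed starts, chr5:104202367-104202616, plus strand: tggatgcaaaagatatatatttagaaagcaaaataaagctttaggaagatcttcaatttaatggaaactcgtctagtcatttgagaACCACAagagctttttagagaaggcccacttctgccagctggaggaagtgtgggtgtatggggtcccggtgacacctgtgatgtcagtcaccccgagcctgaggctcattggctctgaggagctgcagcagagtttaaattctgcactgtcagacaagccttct
Mepe, chr5:104325079-104325328, plus strand: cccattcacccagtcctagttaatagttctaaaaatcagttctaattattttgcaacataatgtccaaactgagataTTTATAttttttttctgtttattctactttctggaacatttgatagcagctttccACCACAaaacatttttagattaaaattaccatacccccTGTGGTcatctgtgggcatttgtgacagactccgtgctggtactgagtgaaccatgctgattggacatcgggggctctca
Phex, chrX:157415287-157415536, minus strand: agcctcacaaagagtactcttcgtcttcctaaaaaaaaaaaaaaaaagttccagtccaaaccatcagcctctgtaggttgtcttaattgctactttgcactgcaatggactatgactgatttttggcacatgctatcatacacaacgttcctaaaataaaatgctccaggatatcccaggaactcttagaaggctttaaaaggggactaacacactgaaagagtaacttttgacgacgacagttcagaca
Sost, chr11:101967016-101967265, minus strand: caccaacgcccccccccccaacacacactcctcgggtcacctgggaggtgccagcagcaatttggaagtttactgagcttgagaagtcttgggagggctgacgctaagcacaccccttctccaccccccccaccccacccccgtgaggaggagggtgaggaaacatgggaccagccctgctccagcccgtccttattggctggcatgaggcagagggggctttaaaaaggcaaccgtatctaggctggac
The Mepe window held 2 RUNX core matches, whose first bases lie 118 and 80 bases before the start, and 1 TATA box match at 173 bases. The window of the second Dmp1 start held 1 RUNX core match, at 164 bases, and that of the first start held neither motif. The letters were in none of the other 4 genes' windows. Of all 32851 windows of this length, 14% held the RUNX core and 12.4% the TATA box motif, so that matches are common and are given as description. The windows of the 6 genes ranged from 38.0% G and C in Mepe to 81.2% in Fam20c, against a median of 52.4% over all windows.

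The 6 genes did not move as one. Against control joints, Sost was lower in the first 3 days, Phex was higher at 1 to 2 weeks, and Dmp1 was higher in the 6 late joints (week 3-4 and decline) than in the 5 early ones (day 0-3 and week 1-2). Mepe, Fam20c and Fgf23 were called in none of the 9 comparisons or in the F test over the 5 groups. A joint holds several tissues, among them bone, marrow, synovium and tendon, so for every value here fewer cells of a type and less RNA per cell cannot be told apart. The published methods state that skin, fur and the muscle that could be seen were taken off before the joint was cut out, yet epidermal and muscle markers were measured on every array and differed between joints.

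**Figure D1:**
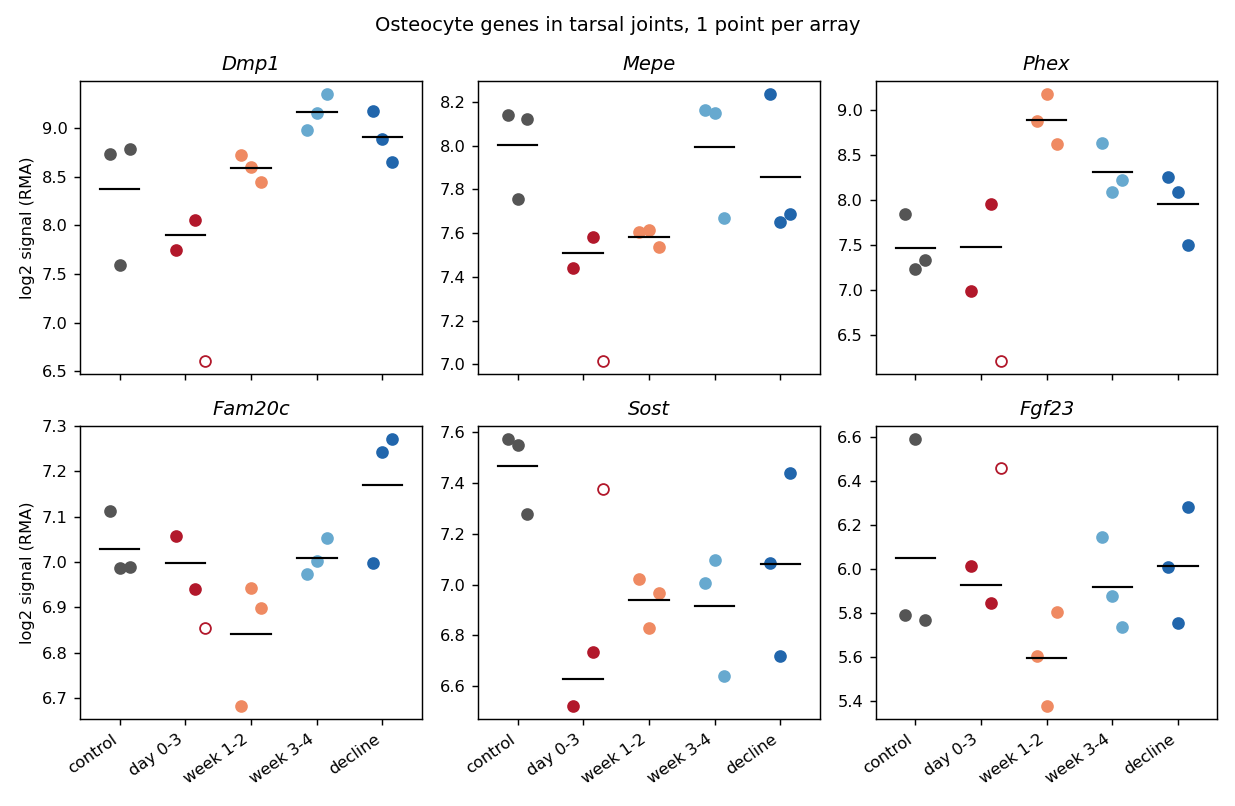
Log2 RMA signal of the 6 genes on each array, by group, with 1 point per joint, a black line at the group mean and an open circle for animal 57, which failed quality control and is in no mean. The 3 week 1-2 joints stand above all controls in Phex, both day 0-3 joints below all controls in Sost, and the 3 week 3-4 joints above all controls in Dmp1.

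Dmp1, which binds calcium and seeds mineral in the matrix around osteocytes, gave 7.74 and 8.05 in the day 0-3 joints. It gave 8.72, 8.60 and 8.45 in week 1-2, 8.98, 9.15 and 9.35 in week 3-4, and 9.18, 8.89 and 8.65 in decline. The controls gave 8.73, 7.59 and 8.78. Both day 0-3 joints were thus under every other arthritic joint, and the lowest control, control 2, was under them. Group means rose in the order day 0-3 (7.90 ± 0.22 SD, n = 2), control (8.37 ± 0.67, n = 3), week 1-2 (8.59 ± 0.14, n = 3), decline (8.91 ± 0.26, n = 3) and week 3-4 (9.16 ± 0.18, n = 3), and each neighbouring pair in this order overlapped. The late joints exceeded the early joints by 0.79 on the log2 scale (SE 0.20), a 1.73-fold difference with a limma adjusted p of 0.0493. The 2 sets overlapped only where animal 10 of the late set fell below animal 33 of the early set. In week 3-4 the difference to control was of the same size, 0.79 (SE 0.27, adjusted p = 0.118), with no overlap of the groups, and it was not called.

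Of the 6 genes, Dmp1 was the 1 called between late and early joints, beside 3.24% of all genes called in that comparison. That call sits next to the threshold: with 1 array left out at a time, the change lay between 0.71 and 0.87 and the call was lost for 10 of the 14 arrays. With the letter code in the array names as a block, fitted over the arthritic arrays, the change was 0.57 with an adjusted p of 0.872. That code is the first for all early joints and for animal 54, and the second for the other 5 late joints. The joints also differed in markers of other tissue. Means of the 8 epidermal markers ran from 5.98 to 6.85 in early joints and from 7.41 to 11.5 in late ones, and all 8 were called higher in late joints; their part in the Dmp1 result was not tested. In controls 1, 2 and 3, the epidermal means were 6.79, 6.57 and 10.4 beside Dmp1 signals of 8.73, 7.59 and 8.78. Muscle markers stood higher late as well, with 3 of 10 called and means of 8.67 to 10.6 early against 9.94 to 10.9 late. With the muscle mean as a covariate, the late against early change of Dmp1 was 0.59 with an adjusted p of 0.469, and the call was lost.

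Mepe, from which an acidic peptide that restrains mineral growth can be released, was lowest early. It gave 7.44 and 7.58 in day 0-3 and 7.60, 7.61 and 7.54 in week 1-2. The week 3-4 joints gave 8.17, 8.15 and 7.67, the decline joints 8.24, 7.65 and 7.69, and the controls 8.14, 7.76 and 8.12. All 5 early joints were below every late joint and every control. The difference was 0.38 late against early (SE 0.14, adjusted p = 0.188), -0.50 in day 0-3 against control (SE 0.21, adjusted p = 0.162) and -0.42 in week 1-2 against control (SE 0.19, adjusted p = 0.157). None of these was called. The order of its group means was day 0-3, week 1-2, decline, week 3-4 and control, and week 1-2 and decline were the only neighbours that did not overlap.

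The other members of the phosphoprotein family that could be read were Ibsp and Dspp, while Spp1 had no probe set naming it alone. Ibsp, bone sialoprotein, which osteoblasts make and which binds mineral, was called higher than control in 3 phases. Its changes were 1.06 in day 0-3 (SE 0.23, adjusted p = 0.0164), 1.30 in week 1-2 (SE 0.21, adjusted p = 0.00347) and 1.49 in week 3-4 (SE 0.21, adjusted p = 0.0118). Dspp, best known from dentin, was not called in any comparison. Set side by side in week 3-4 against control, the run of neighbouring genes read -0.33 for Dspp, 0.79 for Dmp1, 1.49 for Ibsp and -0.01 for Mepe, and only Ibsp was called.

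Phex, the endopeptidase, showed the widest change of the 6. The controls gave 7.84, 7.23 and 7.33, and the day 0-3 joints 6.99 and 7.95. Week 1-2 joints gave 8.87, 9.17 and 8.61, week 3-4 joints 8.63, 8.09 and 8.22, and decline joints 8.25, 8.09 and 7.50. All 3 week 1-2 joints lay above every control and every day 0-3 joint, and the week 3-4 joints also lay above every control. At 1 to 2 weeks Phex was 2.68-fold higher than in control, a log2 change of 1.42 (SE 0.28, limma adjusted p = 0.00927), and it was the 1 member called there, where 10.1% of all genes were called. The later changes were smaller and not called, 0.85 in week 3-4 (SE 0.28, adjusted p = 0.11) and 0.48 in decline (SE 0.28, adjusted p = 0.505). In day 0-3 the change was 0.00 (95% interval -0.67 to 0.67).

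Phex was also the 1 member that passed limma's moderated F test over the 5 groups (adjusted p = 0.0322), which 5.2% of all genes passed. Dmp1 had an adjusted p of 0.0871 and Sost one of 0.128 in the same test. The call at 1 to 2 weeks was kept in 13 of the 14 fits that left 1 array out, and without animal 43 the change was 1.28 with an adjusted p of 0.0568. With the spread of each array as a covariate it was 1.10 (adjusted p = 0.0797), and with all 15 arrays the change of 1.42 had an adjusted p of 0.0843. Leaving out animal 16, 33, 43 or 52 or control 3 ended the F test's call.

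Sost, the gene of sclerostin, had its highest group mean in control, as had Mepe and Fgf23. The controls gave 7.57, 7.55 and 7.28, and the day 0-3 joints 6.52 and 6.74. Week 1-2 joints gave 7.02, 6.83 and 6.97, week 3-4 joints 7.01, 7.10 and 6.64, and decline joints 7.08, 6.72 and 7.44. Of the 11 arthritic joints, only animal 10 of the decline group reached the range of the controls. In day 0-3 Sost was 1.79-fold lower than in control, a log2 change of -0.84 (SE 0.21, limma adjusted p = 0.0307), with 7.82% of all genes called in that comparison and Sost the 1 member among them. Over all 11 arthritic joints the change was -0.58 (SE 0.15, adjusted p = 0.029), again the 1 member called, beside 12.6% of all genes. The changes in week 1-2 (-0.53, adjusted p = 0.087) and week 3-4 (-0.55, adjusted p = 0.123) had no overlap with control and were not called, and in decline the change was -0.39 (adjusted p = 0.44).

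**Figure D2:**
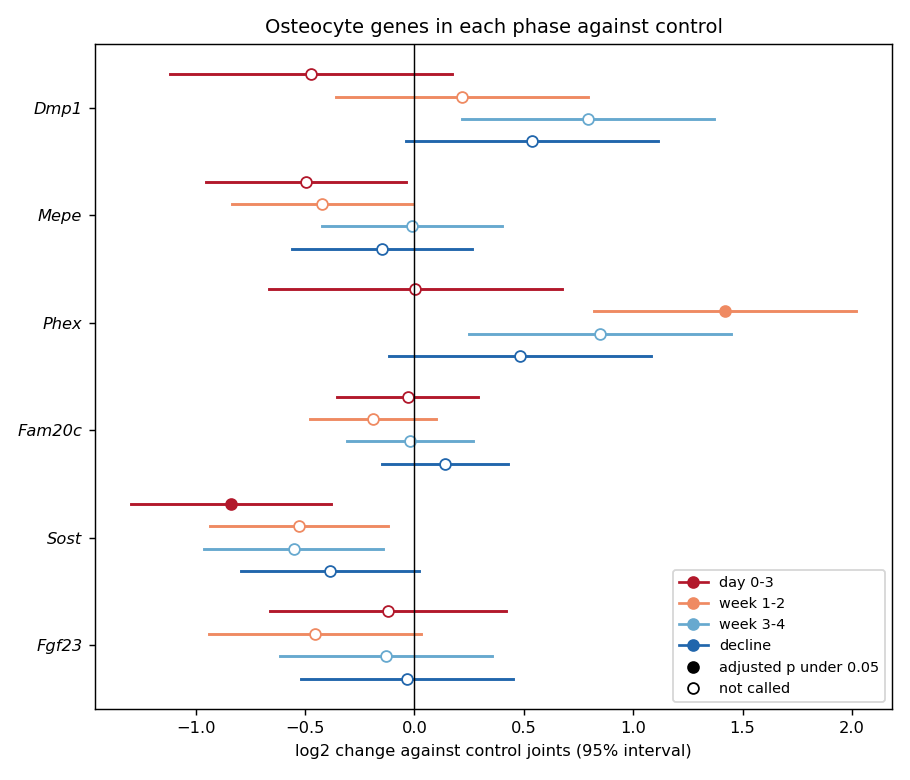
Log2 change of each gene in each of the 4 arthritic phases against the 3 controls, with the 95% interval of the limma fit; filled points are called. Phex in week 1-2 (1.42) and Sost in day 0-3 (-0.84) are the 2 filled points, and every interval of Fam20c and Fgf23 reaches across 0.

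The Sost signal was lower on arrays whose values were spread more widely. The SD of log2 signal over all genes was 1.22 to 1.46 on the control arrays, 1.51 to 1.62 on early arrays and 1.28 to 1.65 on late arrays. Over the 14 arrays, which share groups as well as spread, Sost had a Pearson correlation of -0.85 with that SD. The correlation was -0.72 for Fgf23, 0.54 for Phex, 0.36 for Dmp1, -0.22 for Mepe and -0.18 for Fam20c. Animal 10, the decline joint with a Sost signal of 7.44, had the narrowest array of the arthritic joints at 1.28. With the SD as a covariate, the day 0-3 change of Sost was -0.50 (adjusted p = 0.152) and that over all arthritis -0.28 (adjusted p = 0.319). With every array set to 1 median and SD, the same changes were -0.90 (adjusted p = 0.0316) and -0.64 (adjusted p = 0.0272). Array spread and group cannot be told apart for the early joints, whose arrays were all wider than those of the controls.

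Muscle RNA ran alongside as well. The mean of the 10 muscle markers was 10.9 to 11.6 in controls, 8.67 and 8.77 in the day 0-3 joints and 9.66 to 10.6 in the week 1-2 joints. In day 0-3, 9 of 10 markers were called lower, beside 7.82% of all genes called. With the muscle mean as a covariate, the Sost change was -1.57 in day 0-3 (adjusted p = 0.445) and -0.96 over all arthritis (adjusted p = 0.176). Both calls were lost, although both changes were larger in size than without the covariate (-0.84 and -0.58). Both day 0-3 joints had muscle means below every control, so muscle RNA and group cannot be told apart there. The day 0-3 call was also lost without animal 16, without animal 18 and without control 2 (adjusted p = 0.264, 0.127 and 0.0714), and with animal 57 included, which gave 7.38, the change was -0.59 (adjusted p = 0.372). The call over all arthritis was lost without animal 16 or 43 or control 1 or 2, with adjusted p of 0.0634, 0.0516, 0.0635 and 0.118.

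Marker signals of other cells of the joint shifted at the same time. In day 0-3 against control, limma called 7.82% of all genes. It called 5 of 12 osteoclast and 5 of 10 macrophage markers higher and none lower, and 1 of 10 chondrocyte markers lower. It called 0 of 9 erythroid marrow markers. Of those 9, 4 were at an unadjusted p under 0.05, as were 5205 of all 19938 genes. The erythroid mean was 5.86 and 5.98 in the day 0-3 joints against 6.18 to 6.65 in controls. Late against early, where 3.24% of all genes were called, 1 of 10 macrophage markers was called lower and 1 of 10 chondrocyte markers higher. None of the osteoclast or erythroid markers was called. Of these, 6 and 4 were at an unadjusted p under 0.05, as were 3224 of all 19938 genes. The part of these shifts in the values of Sost and of the other 5 genes was not tested.

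**Figure D3:**
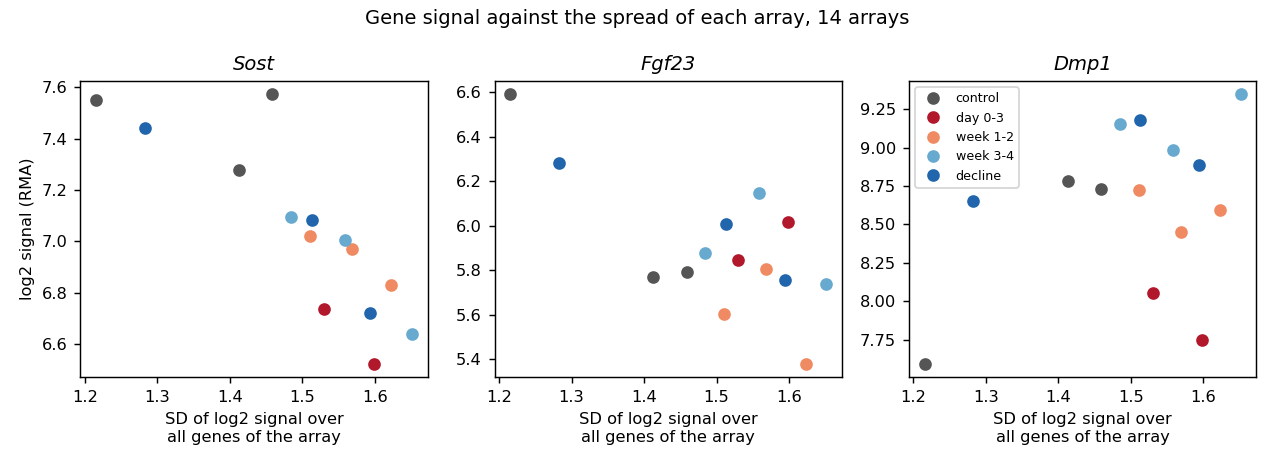
Log2 RMA signal of Sost, Fgf23 and Dmp1 against the SD of log2 signal over all genes of the same array, 1 point for each of the 14 arrays, coloured by group. Sost falls from left to right (r = -0.85), and the 2 narrowest arrays, control 2 (1.22) and animal 10 (1.28), hold the 2 highest Fgf23 signals.

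Around sclerostin, 18 other genes of WNT signalling were read. In day 0-3 Sfrp1, a secreted antagonist of WNT ligands, was higher than control by 1.94 (SE 0.35, adjusted p = 0.00677). Wif1, another secreted inhibitor, was lower by 1.19 (log2 change -1.19, SE 0.21, adjusted p = 0.00638), and so was Wnt1, a ligand known for its role in bone mass, with a change of -0.71 (SE 0.19, adjusted p = 0.042). The Wnt1 signals ran from 4.64 to 5.56 on the 14 arrays, and whether this probe set was above background was not assessed. Ctnnb1, the gene of beta-catenin, had a change of 0.60 and was not called. Sfrp1, Wif1 and Wnt1 were all that passed of the 18, beside 7.82% of all genes. The median change of the 18 was -0.26 against -0.12 over all genes. Over all arthritis, where 12.6% of all genes were called, Wif1 (-0.53, adjusted p = 0.0403) and Wnt1 (-0.46, adjusted p = 0.0452) were called lower and none higher. At an unadjusted p under 0.05 were 5 of the 18 and 6420 of all 19938 genes. Late against early, Wif1 was higher by 0.69 (SE 0.14, adjusted p = 0.0233) and Sfrp1 lower, with a change of -1.32 (SE 0.24, adjusted p = 0.0125). Sost changed by 0.21 between those joints (SE 0.14, adjusted p = 0.522).

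Fgf23 gave 6.01 and 5.84 in day 0-3, 5.6, 5.38 and 5.80 in week 1-2, 6.15, 5.88 and 5.74 in week 3-4, 6.01, 5.76 and 6.28 in decline and 5.79, 6.59 and 5.77 in control. The highest signal, 6.59, came from control 2 and the next, 6.28, from animal 10, which are the 2 narrowest arrays of the 14. The change nearest to a call against control was -0.45 in week 1-2 (95% interval -0.94 to 0.03, adjusted p = 0.191), and the groups overlapped there. Without control 2 the changes in day 0-3, week 3-4 and decline turned from -0.12, -0.13 and -0.03 to 0.15, 0.14 and 0.24, so no direction is given for this gene. The files hold no detection call, and whether the Fgf23 probe set was above background was not assessed.

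Of 16 other genes of phosphate handling and of Fgf23 itself, limma called none in any phase against control. At an unadjusted p under 0.05 were 3 in day 0-3, none in week 1-2 and 2 each in week 3-4 and decline. Over all 19938 genes, 5205, 5968, 4774 and 2400 were under 0.05 unadjusted, in the same order. Late against early, 2 of the 16 were called, beside 3.24% of all genes. Alpl, the alkaline phosphatase that frees phosphate for mineral, was higher by 0.86 (SE 0.15, adjusted p = 0.0122). Pcsk5, a proprotein convertase, was lower, with a change of -0.73 (SE 0.13, adjusted p = 0.0129). Next in size were Xpr1, a phosphate exporter, at -0.46 and Ank, a pyrophosphate transporter, at 0.45, neither of them called.

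Fam20c varied least. Its signals ran from 6.68 to 7.27 over the 14 joints. It gave 7.06 and 6.94 in day 0-3, 6.68, 6.94 and 6.90 in week 1-2, 6.97, 7.0 and 7.05 in week 3-4, 7.0, 7.24 and 7.27 in decline and 7.11, 6.99 and 6.99 in control. The week 1-2 joints lay just under the controls and the other groups overlapped them. Its changes against control were between -0.19 in week 1-2 (95% interval -0.48 to 0.10) and 0.14 in decline (95% interval -0.15 to 0.43). Of the 5 related kinases read, Fam20a, Fam20b, Fjx1, Gask1a and Gask1b, limma called none in any comparison. In week 1-2 against control, 1 was at an unadjusted p under 0.05, as were 5968 of all 19938 genes.

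In week 3-4 against control, limma called none of the 6 osteocyte genes and 1.55% of all genes. At an unadjusted p under 0.05 were 3 of the 6 (Dmp1, Phex and Sost) and 4774 of all 19938 genes. In decline against control, limma called none of the 6 and 0% of all genes. None of the 6 was under 0.05 unadjusted, against 2400 of all 19938 genes. Between successive phases none was called either. Week 1-2 against day 0-3 and week 3-4 against week 1-2 each called 0.00502% of all genes (1 of 19938), and decline against week 3-4 called 0%. The largest of these steps was Phex from day 0-3 to week 1-2, 1.42 (SE 0.31, adjusted p = 0.43), with no overlap of the groups. The analysis of variance that the methods name, fitted to the groups compared, called none of the 6 in these comparisons. Comparisons that use the same controls or the same early joints are not independent of each other.

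The 6 genes were then read against the osteoblast lineage in the same joint, by taking from each array the mean of 15 osteoblast and bone matrix genes. That mean was 8.06 to 8.62 in controls, 8.47 to 8.93 in early and 8.68 to 8.98 in late joints. In week 1-2, 7 of the 15 were called higher than control and none lower, beside 10.1% of all genes. They were led by Ibsp (1.30), Sparc (1.29), Col1a2 (1.13) and Col1a1 (1.10). The median change of the 15 was 0.68 against -0.13 over all genes. In day 0-3, 2 were called higher and 2 lower, beside 7.82% of all genes. Late against early, 3 were called higher, Alpl among them, beside 3.24% of all genes, so the list did not move as one. Sost relative to this mean was -1.05, -0.51 and -0.98 in controls and between -2.31 and -1.27 in the 11 arthritic joints. The groups did not overlap. The difference was -1.0 (exact two-sided permutation p = 0.00549, the smallest that 11 against 3 arrays can give, and 0.033 after adjustment over the 12 tests of 6 genes in 2 comparisons). Animal 57, left out for quality, gave -0.26, above every control. Controls 1, 2 and 3 had array SDs of 1.46, 1.22 and 1.41 beside osteoblast means of 8.62, 8.06 and 8.26. The part of array spread in this difference was not tested.

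Relative to the same mean, Mepe was lower in arthritis by 0.69 (difference -0.69, exact permutation p = 0.011, adjusted p = 0.044) and Fam20c by 0.47 (difference -0.47, exact permutation p = 0.0165, adjusted p = 0.0495), each with some overlap. Dmp1 relative to the mean rose from early to late joints by 0.61 (exact permutation p = 0.00433, the smallest possible for 6 against 5 arrays, adjusted p = 0.033). It was between -0.72 and -0.21 in early joints and between -0.05 and 0.50 in late joints, with no overlap. The other 8 tests did not pass. With Col1a1 and Col1a2 alone as the reference and with the BMP genes taken out of the list, 4 tests passed again. Leaving out any control left 0. Against control, 11 against 2 arrays cannot give a p below 0.0256, and the Dmp1 test, which uses no control and kept its p, then missed the threshold through the adjustment over the 12 tests. Leaving out animal 18, 33, 43 or 52 also left 0, and leaving out animal 54, 29, 60 or 21 left 2 and animal 15 left 3. A difference of this kind falls when the osteoblast genes rise, and Sost is the 1 of the 3 genes lower on this scale that was also called on its own against control.

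**Figure D4:**
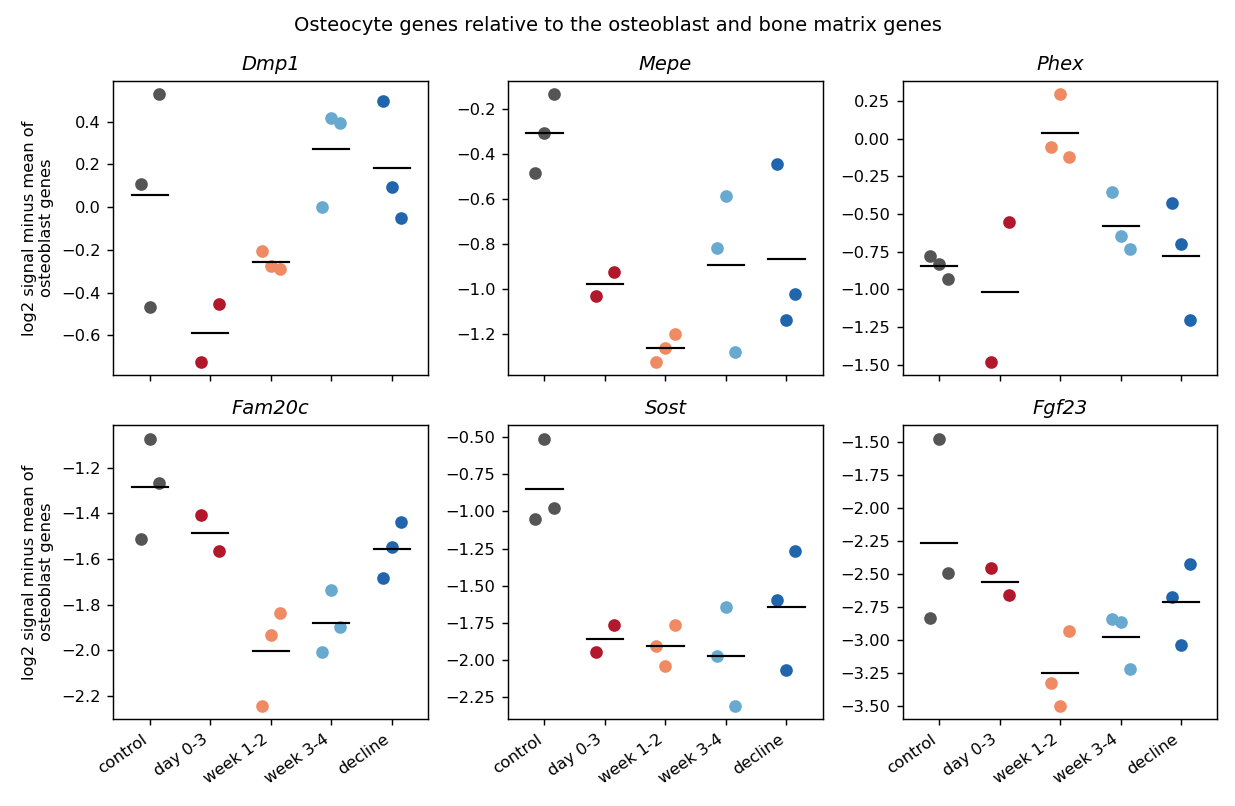
Log2 signal of each gene minus the mean of 15 osteoblast and bone matrix genes of the same array, by group, with 1 point for each of the 14 joints and a line at the group mean. All 11 arthritic joints lie below the 3 controls in Sost, and the 6 late joints lie above the 5 early joints in Dmp1.

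Among 15 further genes used as markers of osteocytes, calls went in both directions. Of all genes, limma called 7.82% in day 0-3, 10.1% in week 1-2 and 3.24% late against early. In day 0-3 Gja1, which codes for connexin 43 of the gap junctions between osteocytes, was higher than control by 1.37 (SE 0.34, adjusted p = 0.028). Npy, neuropeptide Y, was lower (-1.54, SE 0.22, adjusted p = 0.00176), and so was Mef2c, a transcription factor that acts on the Sost enhancer and is also made in muscle (-1.10, SE 0.26, adjusted p = 0.0238). Pdpn, the podoplanin of embedding osteocytes, had a change of 1.28 and was not called (adjusted p = 0.062). In week 1-2 Gja1 was higher (1.46, adjusted p = 0.012) and Npy lower (-1.58, adjusted p = 0.0017), with no other call. In week 3-4, 1 of the 15 was called higher and 1 lower, beside 1.55% of all genes. Over all arthritis, 1 was called higher and 3 lower, beside 12.6% of all genes. The median change of the 15 was -0.24 in day 0-3 and -0.01 in week 1-2, against -0.12 and -0.13 over all genes. Late against early, Irx5 was the 1 called, higher by 0.89 (SE 0.15, adjusted p = 0.0104).

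Over the 14 arrays, the 3 genes most like each member were found by Pearson correlation among genes with a group mean of at least 6. They describe these arrays, which share groups, tissue content and spread. Phex was most like Fibin (0.89), Omd (0.88), the osteomodulin gene of bone matrix, and Ptprd (0.86). Dmp1 was most like Cpe (0.90), Gsta4 (0.88) and Cpm (0.86). Mepe was most like Hmgn2 (0.88), Rasd1 (0.87) and Ralgps2 (0.86), and Fam20c like Ptprf (0.93), Myc (0.90) and Itpr3 (0.85). Sost was most like Wdr25 (0.95), Gal3st3 (0.94) and Nkx2-3 (0.93), and Fgf23 like Limk2 (0.91), Wnk4 (0.88) and Ntn3 (0.88). The 3 genes like Sost had correlations of -0.89, -0.90 and -0.88 with the array's SD, and the 3 like Fgf23 had -0.73, -0.74 and -0.88. Those like Phex had 0.70 (Fibin), 0.54 (Omd) and 0.75 (Ptprd). Omd was the only one of the 18 on any list of bone genes used here. Among the members themselves, the highest correlations were 0.54 between Dmp1 and Mepe and 0.52 between Sost and Mepe, and the lowest was -0.61 between Phex and Fgf23.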

How the data were processed

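RNA of 15 whole tarsal joints was hybridised singly to Mouse Gene 1.0 ST arrays. The authors deposited log2 signals after RMA background correction and quantile normalisation, made with affy in R 2.15 according to the submitters' processing notes. No affy version was found in the sources used here, and whether the array later left out shared in the normalisation is not known. The array of animal 57 failed the authors' quality control and was left out. Of 35556 probe sets, 21789 named 1 gene, 1621 named several and 12146 had none listed. Probe sets naming 1 gene were kept, the one with the highest mean standing for a gene with several, which left 19938 genes. Means of the 5 groups were fitted with limma 3.58.1 in R 4.3.3 (lmFit, eBayes), with Benjamini-Hochberg adjustment over all genes, a threshold of 0.05, 9 contrasts and a moderated F test. The code was tested on simulated data. Genes relative to the osteoblast list were compared by exact two-sided permutation of means with SciPy 1.17.1 in Python 3.11.15. Named were the 6 genes, up to 4 genes per list by the size of the change discussed, and the 3 genes most like each member. Called genes were named in some lists and given only as counts in others, among them the markers of other cell types. The 6 genes, the 12 other lists and the tests were chosen with earlier results of these data known. Alternatives covered the arrays used, normalisation, filters, probe set choice, the test and, for phases, the letter code of array names. Arrays give no depth, so their number limits precision. A planned search for protein motifs was not run for lack of protein sequences among the tables used.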

Additional observations from a re-analysis of the deposited data

Results flagged for a closer look

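The change of Dmp1 against control differed between phases: late joints stood 0.79 above early joints on the log2 scale (limma adjusted p = 0.0493). This was the 1 difference between phases, of those tested for the 6 genes, that passed the threshold. The 2 sets overlapped in animals 10 and 33, and the call was lost in 10 of the 14 fits that left out 1 array. No group held the 4 or more arrays needed to test single arrays as outliers. Animal 57, the array left out, gave no signal above every control for any of the 6 genes. It lay below every control in Dmp1 (6.61), Phex (6.21), Mepe (7.02) and Fam20c (6.86), and within the controls in Sost and Fgf23.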

How the results depend on the processing

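The 4 called changes (Sost in day 0-3 and over all arthritis, Phex in week 1-2, Dmp1 late against early) kept their direction in all 113 alternative values and their call in 75. The cause of each loss was not tested, beyond the fewer arrays left. The 1 member called in each of those comparisons became 0 in day 0-3, week 1-2, all arthritis and late against early with all 15 arrays and with the methods' ANOVA, and the F test's 1 became 0 with all 15 arrays. It became 0 in day 0-3, week 1-2 and all arthritis with the array SD as a covariate, 0 in day 0-3, all arthritis and late against early with the muscle mean as a covariate and when calls needed a 2-fold change with unadjusted p under 0.05, and 0 in day 0-3 when limma was fitted to the groups compared only. It became 0 over all arthritis with array weights, and 0 late against early with trend and robust moderation, median centring, all probe sets or the letter code as a block. It became 2 in day 0-3 and in the F test without animal 10 and control 2 together, and 2 late against early with array weights. Week 1-2 against day 0-3 went from 0 to 1 (Phex) with array weights and with the 2-fold rule. With 1 array left out, the count ran from 0 to 1 in day 0-3, the F test and late against early, from 0 to 2 in week 1-2 and all arthritis, and the osteoblast comparison from 0 to 4 of 12. The settings with the array SD, muscle, 1 median and SD or both narrow arrays left out were added after the data were seen.

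Counts over all genes moved by more than 1.5 times. The 1559 of day 0-3 ran from 0 to 2935, the 2005 of week 1-2 from 10 to 3389, the 309 of week 3-4 from 0 to 1427, the 0 of decline from 0 to 294, the 2513 of all arthritis from 3 to 5011, the 646 of late against early from 0 to 2896 and the 1036 of the F test from 81 to 1702. The 1 of week 1-2 against day 0-3 ran from 0 to 70, the 1 of week 3-4 against week 1-2 from 0 to 185 and the 0 of decline against week 3-4 from 0 to 86.

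Log2 changes that turned direction were all uncalled. In day 0-3 against control, Phex became -0.41 with all 15 arrays, -0.033 with array weights, -0.15 with a second quantile normalisation, -0.064 at 1 median and SD, -0.31 with the array SD and -0.11 without both narrow arrays, and ran from -0.48 to 0.49 with 1 array left out. Fgf23 became 0.056 with all 15 arrays, 0.0089 with array weights, 0.29 with the array SD and 0.15 without both narrow arrays (-0.26 to 0.15), Fam20c 0.036 with median centring (-0.090 to 0.029) and Dmp1 0.21 with the muscle mean. In week 1-2, Dmp1 became -0.0083 with array weights, -0.078 with a second quantile normalisation, -0.21 with the array SD and -0.17 without both narrow arrays (-0.17 to 0.43). In week 3-4, Mepe became 0.010 with array weights and 0.029 with median centring (-0.13 to 0.15), Fgf23 0.084, 0.28 and 0.14 with array weights, the array SD and both narrow arrays out (-0.27 to 0.14), and Fam20c 0.018 with median centring (-0.042 to 0.022). In decline, Mepe became 0.029 with array weights, and Fgf23 0.060 with array weights, 0.0027 with median centring, 0.0080 with a second quantile normalisation, 0.011 at 1 median and SD, 0.17 with the array SD and 0.10 without both narrow arrays (-0.17 to 0.24). Over all arthritis, Dmp1 became -0.10 with the array SD and -0.088 without both narrow arrays (-0.12 to 0.48), Fgf23 0.18 and 0.051 likewise (-0.33 to 0.085), and Fam20c 0.031 with median centring (-0.046 to 0.017). Late against early, Phex became 0.16 with all 15 arrays, 0.15 with array weights, 0.0011 with a second quantile normalisation, 0.034 with the array SD, 0.065 without both narrow arrays and 0.35 with the letter code (-0.29 to 0.19). Between successive phases, Fgf23 became 0.34 with the muscle mean (week 1-2 against day 0-3). Sost became 0.026 with array weights and 0.067 with the letter code (week 3-4 against week 1-2, -0.12 to 0.11). From week 3-4 to decline, Sost became -0.0020 with the array SD and -0.012 without both narrow arrays (-0.012 to 0.35), Mepe 0.019 with array weights, and Fgf23 -0.025, -0.11 and -0.038 with array weights, the array SD and both narrow arrays out (-0.038 to 0.23). Relative to osteoblast genes, Phex in arthritis against control became -0.17 with Col1a1 and Col1a2 alone. With 1 array left out, Dmp1 in that comparison ran from -0.37 to 0.13, and late against early Sost ran from -0.034 to 0.18 and Fam20c from -0.033 to 0.18. No paired analysis was possible because the groups share no replicate numbers.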
